A study of Mus musculus with 24 samples.

Results

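The 8 miRNAs described here are ones enriched in liver and read in blood as markers of liver injury: mmu-miR-122-5p, mmu-miR-192-5p, mmu-miR-194-5p, mmu-miR-215-5p, mmu-miR-148a-3p, mmu-miR-193a-3p, mmu-miR-365-3p and mmu-miR-802-5p. The mmu prefix, for mouse, is left out from here on. They were taken by name from the 1881 mouse miRNAs on the array, and 2 probes measured each of them. The study measured miRNA in serum exosomes, the small vesicles that cells shed into blood, on 24 one-colour arrays. The mice were male and of the BALB/c strain. They received toosendanin (TSN), a liver-toxic plant triterpenoid, at 80 mg/kg for 3, 9 or 21 days, and the control mice received vehicle for the same times. Serum was drawn a day after the last dose. Each of the 6 groups (TSN day 3, TSN day 9, TSN day 21, control day 3, control day 9 and control day 21) had 4 arrays, so n = 4 for every group value. Nothing in the labels says if the serum on an array came from 1 mouse or from several. The p-values therefore cover the spread between these samples alone, which may be technical.

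miR-122-5p is by far the main miRNA of hepatocytes, where it acts on lipid and cholesterol metabolism, and it leaks into blood when these cells are damaged. miR-192-5p, miR-194-5p and miR-215-5p are made by a pair of small clusters active in liver, gut and kidney epithelium. miR-148a-3p is abundant in hepatocytes but also found in other tissues, miR-193a-3p and miR-365-3p come from neighbouring genes active in several tissues, and miR-802-5p is known from liver and pancreas.

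A miRNA recognises its targets mainly through its seed, bases 2 to 8 from the 5′ end, printed here in capitals. The mature sequences are RefSeq's, from the GRCm38.p6 assembly, where 7 of the 8 members were matched and printed. They are shown because members that share a seed or differ at few bases are told apart on an array only by their probes. The first group shares the seed UGACCUA, and miR-194-5p is made beside both of them.
miR-192-5p: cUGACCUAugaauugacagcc
miR-215-5p: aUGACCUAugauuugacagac
miR-194-5p: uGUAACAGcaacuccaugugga
The second group shares the seed CAGUGCA. It holds miR-148a-3p and the 2 other miRNAs of its family, miR-148b-3p and miR-152-3p, which are not counted among the 8.
miR-148a-3p: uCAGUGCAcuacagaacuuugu
miR-148b-3p: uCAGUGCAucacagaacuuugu
miR-152-3p: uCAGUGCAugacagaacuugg
The third group shares the seed ACUGGCC, and miR-365-3p is the genomic neighbour of both.
miR-193a-3p: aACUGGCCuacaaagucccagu
miR-193b-3p: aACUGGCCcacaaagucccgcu
miR-365-3p: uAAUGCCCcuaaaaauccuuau
miR-802-5p shares its seed with none of the above.
miR-802-5p: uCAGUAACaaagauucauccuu

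Counted from the 5′ end, miR-192-5p and miR-215-5p differ at 3 of 21 bases, C1A, A12U and C20A. The miR-192-5p probe used for its values pairs with bases 3 to 21, so 2 of these 3 differences lie under it. miR-148a-3p differs from miR-148b-3p at 2 bases (C9U and U10C) and from miR-152-3p at 3 of the 21 bases they share in length (C9U, U10G and U20G), all of them under the miR-148a-3p probe. miR-193a-3p differs from miR-193b-3p at 3 bases (U9C, A20G and G21C), again all under its probe. How far each probe also captures its relatives was not tested.

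In the mouse genome Mir192 lies at chr19:6264844-6264932, 115 bases from Mir194-2, and no other listed gene overlaps either. Mir215 lies at chr1:185313581-185313692, 195 bases from Mir194-1, and both sit inside the span of the protein-coding gene Iars2. miR-194-5p can therefore come from either cluster. Mir193a, at chr11:79711969-79712034, is 14365 bases from Mir365-2. Mir365-1, on chromosome 16, is 4238 bases from Mir193b, and both overlap long non-coding RNA genes. Mir148a lies at chr6:51269812-51269910 within the predicted protein-coding gene Gm38821, and Mir802 at chr16:93369720-93369816 with no overlapping gene.

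Values are spot signals divided by each array's 75th percentile and put on the log2 scale, called scaled values below, and a change is the TSN mean minus the control mean on that scale. Before scaling, the TSN arrays were brighter: the 75th percentile ran from 737 to 1748 on the TSN arrays and from 73.5 to 609 on the control arrays, and its mean was 7.07, 10.3 and 4.62 times higher in TSN at days 3, 9 and 21 (p = 0.0286 on each day in an exact two-sided permutation test, the lowest that 70 allocations can give, and adjusted p = 0.0368 over 9 tests). The number of miRNAs well above background ran from 378 to 467 on TSN arrays and from 183 to 351 on control arrays. The geometric mean of 4 labelling spike-in probes, which do not measure serum miRNA, also differed between the arms. It ran from 1076 to 1637 on TSN arrays and from 205 to 742 on control arrays. How much of the brightness came from labelling and how much from the serum was not tested. No slide held both TSN and control arrays, and the slides of the 2 arms were scanned on different days, so the arms cannot be told apart from the slides or the scan days. In bulk serum, a change in the number of vesicles or cells that release a miRNA and a change in the miRNA carried by each cannot be told apart. One array, replicate 4 of the TSN day 9 group, stood apart from the other 3 of its group in miR-122-5p and miR-192-5p, and the results it moves most are given with and without it.

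Of the 8 members, 6 entered the test, which covered 441 miRNAs, those measured well above background throughout 1 or more of the 6 groups. miR-192-5p and miR-215-5p were well above background on all 24 arrays. miR-365-3p was on 12 TSN and 10 control arrays, miR-122-5p on 12 and 9, miR-148a-3p on 12 and 7, and miR-193a-3p on 8 and 1. miR-194-5p and miR-802-5p were well above background on 1 array each, the same one, TSN day 9 replicate 4, and were not tested. An array had 5 to 8 members well above background in the TSN groups and 2 to 6 in the controls. At day 9 the mean number was 6.5 in TSN and 4 in controls (exact two-sided permutation p = 0.0286, adjusted p = 0.0368), 1.63 times as many. Over all miRNAs on the same arrays the mean number was 436 in TSN and 220 in controls, 1.98 times as many and so a larger ratio than for the members. At day 3 the mean number of members was 5.5 in TSN and 4 in controls (exact permutation p = 0.171), and at day 21 5.5 in TSN and 4.75 in controls (exact permutation p = 0.629).

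**Figure D1:**
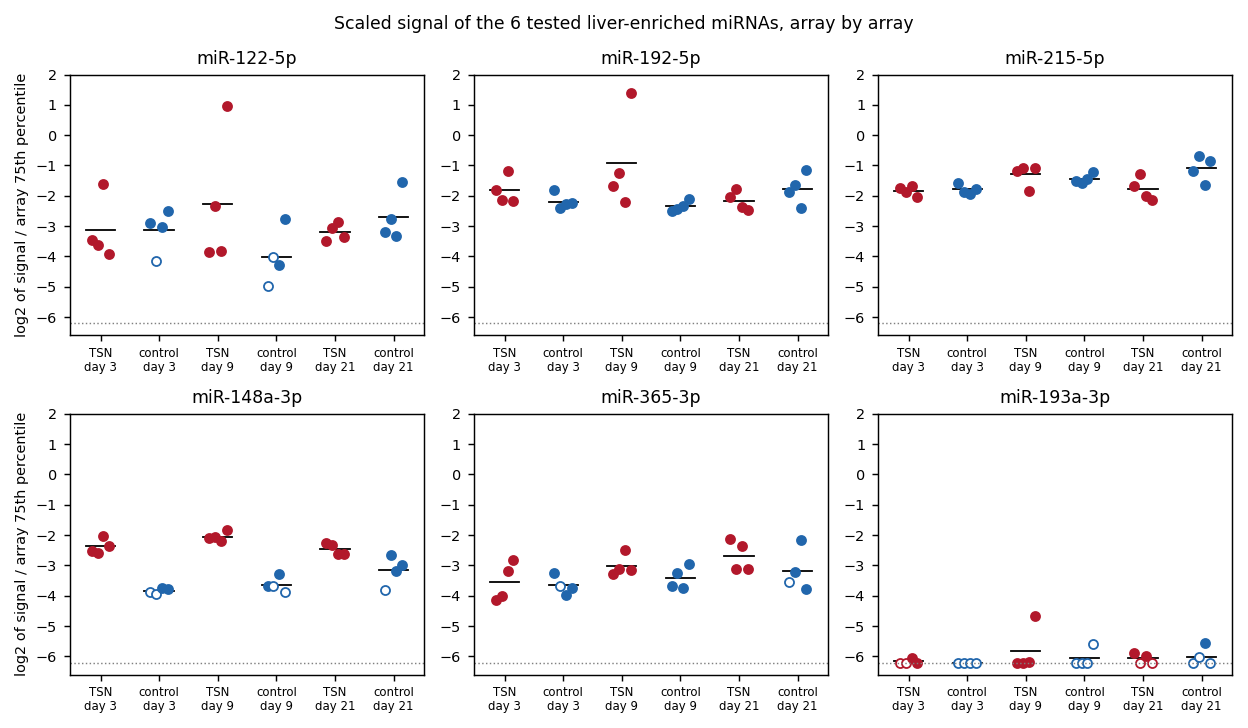
Scaled signal (log2 of signal over the array's 75th percentile, vertical axis) of the 6 tested members on each array, by group along the horizontal axis. Red points are TSN arrays and blue points control arrays, open points were not well above background, short lines are group means (n = 4), and the dotted line is the floor of -6.21. miR-148a-3p is the member whose TSN and control arrays are separate at every day, and TSN day 9 replicate 4 is the top point of miR-122-5p (0.97) and miR-192-5p (1.40).

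miR-148a-3p, a hepatocyte-abundant miRNA, was the one member higher in TSN serum exosomes at all 3 days. At day 3 its scaled values were -2.52, -2.58, -2.03 and -2.36 on the TSN arrays, against -3.88, -3.94, -3.75 and -3.79 on the control arrays, of which 2 were well above background. Every TSN array lay above every control array. The change was 1.47 (SE 0.185, limma adjusted p = 1.59e-06).

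At day 9 its values were -2.10, -2.07, -2.19 and -1.83 in TSN, against -3.69, -3.68, -3.27 and -3.89 in controls, again with 2 control arrays well above background. The change was 1.59 (SE 0.185, limma adjusted p = 5.1e-07), and the groups did not overlap. At day 21 the gap was smaller, with -2.27, -2.34, -2.64 and -2.61 in TSN against -3.80, -2.65, -3.19 and -2.98 in controls, 3 of them well above background. The lowest TSN array lay just above the highest control array, and the change was 0.69 (SE 0.185, limma adjusted p = 0.00473). That call passed with any 1 array left out but was lost in 7 of 14 alternative settings, with adjusted p up to 0.279. The calls of days 3 and 9 passed in all 14 settings that could give a value and with any 1 array left out. The filter that asks for every array to be well above background is not among the 14. It leaves out miR-148a-3p, which was well above background on 12 TSN and 7 control arrays. miR-148a-3p entered the test through its TSN groups, as no control group was well above background throughout. Its calls could therefore not be tested under that filter.

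Between days, its change passed as different for day 21 against day 9 alone. The control day 21 arrays lay on a slide of their own, so the day and the slide cannot be told apart here. The TSN effect at day 21 minus that at day 9 was -0.90 (SE 0.261, limma adjusted p = 0.0121 for the interaction), a call lost in 7 of 14 settings. Day 21 minus day 3 was -0.78 (adjusted p = 0.0534). Days 9 and 3 differed by 0.12 (95% confidence interval -0.43 to 0.66). The control group of day 21 was itself higher than that of day 3, by 0.69 (SE 0.185, adjusted p = 0.0119, passing in 4 of 14 settings), while in TSN the change from day 3 to day 21 was -0.092 (interval -0.48 to 0.29). In order of group means, TSN day 9 (-2.05 ± 0.155), TSN day 3 (-2.37 ± 0.247) and TSN day 21 (-2.47 ± 0.187) came first, then control day 21 (-3.16 ± 0.484), control day 9 (-3.63 ± 0.257) and control day 3 (-3.84 ± 0.0856; SD, n = 4 each). Neighbours in that order differed by more than the larger of their SDs at 2 steps, TSN day 9 to TSN day 3 and TSN day 21 to control day 21.

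Of the other 2 miRNAs with the miR-148a seed, miR-148b-3p passed as higher in TSN at the same days. It had -2.95, -3.01, -2.61 and -2.75 at TSN day 3, against -4.51, -4.36, -4.37 and -4.23 at control day 3, with 2 control arrays well above background. Its groups did not overlap at any day, and limma gave changes of 1.54 at day 3 (SE 0.154, adjusted p = 1.33e-07), of 1.54 at day 9 (adjusted p = 6.84e-08, with 1 control array well above background) and of 0.60 at day 21 (adjusted p = 0.00345, with 3). miR-152-3p was well above background on all 12 TSN arrays but on no control array of days 3 and 9, so no fold and no call is given there: its TSN mean was below the lowest signal the control arrays could measure. At day 21 it was 0.59 higher (limma adjusted p = 0.0149, with 2 control arrays well above background).

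miR-122-5p, the main hepatocyte miRNA and the most used marker of liver injury, did not pass the test at any day. At day 3 its scaled values were -3.44, -3.62, -1.59 and -3.91 in TSN, against -2.89, -4.16, -3.03 and -2.49 in controls, and the groups overlapped, with TSN replicate 3 above every control array and control replicate 2 below every TSN array. The change was 0.00013, with a 95% confidence interval of -1.68 to 1.68. At day 21 the values were -3.50, -3.05, -2.86 and -3.37 in TSN, against -3.18, -2.75, -3.31 and -1.55 in controls, a change of -0.50 (interval -2.18 to 1.19, adjusted p = 0.692). These intervals leave room for a change of over 1 log2 unit either way.

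At day 9 its values were -3.87, -2.34, -3.81 and 0.97 in TSN, against -4.98, -4.01, -4.30 and -2.78 in controls, 2 of them well above background. TSN replicate 4 lay far above the rest, replicate 2 lay just above the highest control array, and replicates 1 and 3 lay within the control range. The change was 1.75 (SE 0.805, interval 0.073 to 3.44, limma adjusted p = 0.0643). Without TSN replicate 4 it was 0.68 (adjusted p = 0.352). Under 8 of 14 alternative settings the change passed the threshold, with adjusted p from 0.0145 to 0.241. In order, its group means were -2.26 ± 2.27 in TSN day 9, -2.70 ± 0.805 in control day 21, -3.14 ± 1.05 in TSN day 3, -3.14 ± 0.715 in control day 3, -3.20 ± 0.290 in TSN day 21 and -4.02 ± 0.923 in control day 9 (SD, n = 4 each). No neighbours in that order differed by more than the larger of their SDs. The second miR-122-5p probe gave changes of -0.44, 1.02 and -0.52 at days 3, 9 and 21. Its day 3 change lay within the interval of the probe used (-1.68 to 1.68), whose change of 0.00013 has no clear sign.

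miR-192-5p, made in liver, gut and kidney epithelium, was higher in TSN at day 9 and passed at no other day. Its day 9 values were -1.66, -1.26, -2.20 and 1.40 in TSN, against -2.49, -2.43, -2.34 and -2.11 in controls. The groups overlapped by 1 array, TSN replicate 3, which lay below the highest control. The change was 1.41 (SE 0.502, limma adjusted p = 0.0201). Without TSN replicate 4 it was 0.63 (adjusted p = 0.0612), and with the replicate number as a block, which at day 9 pairs arrays of the same number, adjusted p = 0.142. It passed in 12 of 15 alternative settings.

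At day 3 miR-192-5p had -1.80, -2.13, -1.20 and -2.16 in TSN, against -1.82, -2.41, -2.28 and -2.25 in controls, a change of 0.37 (interval -0.68 to 1.42, adjusted p = 0.603). At day 21 it had -2.05, -1.78, -2.37 and -2.46 in TSN, against -1.87, -1.66, -2.41 and -1.14 in controls, a change of -0.40 (interval -1.45 to 0.65, adjusted p = 0.585). The groups overlapped at both days. The TSN effect at day 21 minus that at day 9 was -1.81 (SE 0.709, limma adjusted p = 0.0537), which misses the threshold, and without TSN day 9 replicate 4 it was -1.03 (adjusted p = 0.0502). Its group means, from TSN day 9 (-0.93 ± 1.60) down to control day 9 (-2.34 ± 0.168), had no neighbours further apart than the larger of their SDs.

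miR-215-5p, whose seed is that of miR-192-5p, passed as lower in TSN at day 21 and did not pass at days 3 and 9. At day 9 its values were -1.19, -1.08, -1.83 and -1.08 in TSN, against -1.53, -1.57, -1.44 and -1.23 in controls, a change of 0.15 (SE 0.206, interval -0.28 to 0.58, adjusted p = 0.567). At day 3 the change was -0.046 (interval -0.48 to 0.38, adjusted p = 0.925). At day 21 the values were -1.69, -1.27, -2.01 and -2.15 in TSN, against -1.19, -0.69, -1.65 and -0.85 in controls, and the groups overlapped. The change was -0.68 (SE 0.206, limma adjusted p = 0.011), but relative to the median of all miRNAs it turned to 0.50 with normexp background correction. It passed in 7 of 15 alternative settings and with any 1 array left out.

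For miR-215-5p the TSN effect at day 21 minus that at day 9 was -0.83 (SE 0.291, limma adjusted p = 0.0333 for the interaction). That call passed in 10 of 15 settings and in 7 of 16 fits that each left out 1 array, with adjusted p up to 0.0795. Within the arms, TSN day 9 was 0.54 higher than TSN day 3 (SE 0.206, adjusted p = 0.0474), and control day 21 was 0.69 higher than control day 3 (SE 0.206, adjusted p = 0.0207). The first of these was lost with 6 of 8 arrays left out in turn (0.47 and adjusted p = 0.13 without TSN day 9 replicate 4) and passed in 8 of 15 settings, and the second was lost with 3 of 8 and passed in 9 of 15. Its 6 group means lay between -1.10 ± 0.426 in control day 21 and -1.83 ± 0.162 in TSN day 3, and no neighbours in order differed by more than the larger of their SDs.

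miR-194-5p, the cluster partner of both, had signals of 3.69 to 15.8 on the TSN arrays before scaling, and every control array lay below that range. The array with 15.8 was TSN day 9 replicate 4, where alone it was well above background, and the other 3 arrays of that group had 9.53, 9.15 and 5.30. Before scaling the TSN arrays were brighter as a whole, so the gap between the arms in these signals cannot be read as a change. After scaling all 24 arrays lay at or below the floor, so miR-194-5p has no level to compare.

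miR-365-3p, a broadly expressed miRNA of the miR-193 clusters, did not pass in any comparison of arms. At day 3 its values were -4.13, -4.01, -3.19 and -2.83 in TSN, against -3.24, -3.67, -3.97 and -3.76 in controls, a change of 0.12 (interval -0.60 to 0.84, adjusted p = 0.849). At day 9 they were -3.29, -3.13, -2.48 and -3.14 in TSN, against -3.67, -3.24, -3.73 and -2.96 in controls, a change of 0.39 (interval -0.33 to 1.12, adjusted p = 0.342). At day 21 they were -2.13, -3.11, -2.38 and -3.12 in TSN, against -3.56, -3.21, -2.15 and -3.77 in controls, a change of 0.49 (interval -0.23 to 1.21, adjusted p = 0.283). The groups overlapped at each day. Without control replicate 3, the highest control array of day 21, that change was 0.83 (adjusted p = 0.0432).

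miR-193a-3p, its neighbour on chromosome 11, was dim. Before scaling it had signals of 5.34 to 16.8 at TSN day 3, 15.2 to 55.1 at TSN day 9 and 9.77 to 29.7 at TSN day 21, against at most 2.19, 2.54 and 12.8 in the controls of those days. The TSN arrays were also brighter as a whole, with a mean 75th percentile 7.07, 10.3 and 4.62 times that of the controls. These signals therefore do not compare the arms. miR-193a-3p was well above background on 2, 4 and 2 TSN arrays and on 0, 0 and 1 control arrays at days 3, 9 and 21. Most scaled values lay at the floor, and no fold can be given at day 9, where the TSN mean was below the lowest signal the control arrays could measure. Its relative miR-193b-3p, which is encoded beside Mir365-1, was 1.15 higher at day 9 (SE 0.418, limma adjusted p = 0.0222, with 1 control array well above background), and its changes of 1.02 at day 3 (adjusted p = 0.051) and 0.77 at day 21 (adjusted p = 0.151) did not pass.

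miR-802-5p, known from liver and pancreas, was at background on 23 of 24 arrays. Its signal before scaling was 51.9 on TSN day 9 replicate 4, against 4.72, 7.10 and 3.10 on the other 3 arrays of that group and at most 1.95 on any control array. The control arrays were dimmer as a whole before scaling, so these signals do not compare the arms.

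**Figure D2:**
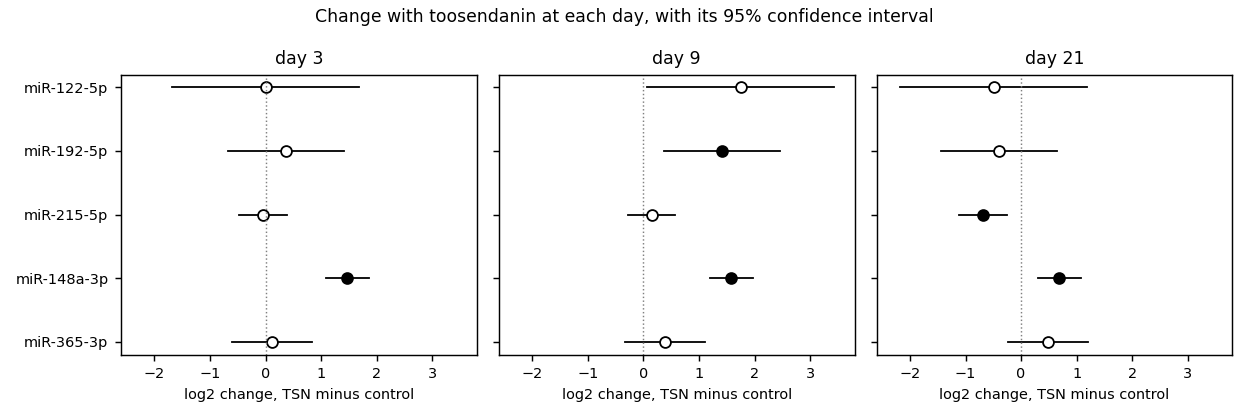
Change with TSN (TSN minus control, log2 of the scaled signal, horizontal axis) of 5 tested members at days 3, 9 and 21, with 95% confidence intervals from the limma fit. Filled points passed at an adjusted p of 0.05: miR-148a-3p at every day (1.47, 1.59 and 0.69), miR-192-5p at day 9 (1.41) and miR-215-5p at day 21 (-0.68), while the intervals of miR-122-5p are the widest at each day.

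Taken as a set, 1 of the 6 tested members was higher and 0 lower in TSN at day 3, where 29.3% of all 441 tested miRNAs were called higher and 18.6% lower by the same limma test. The median change was 0.079 over the 6 members and 0.10 over all tested miRNAs. At day 9, 2 of 6 were higher and 0 lower, against 27.7% and 34.5% of all tested, with medians of 0.90 and -0.039. Without TSN day 9 replicate 4, 1 of 6 was higher and the medians were 0.53 and -0.022. At day 21, 1 of 6 was higher and 1 lower, against 23.1% and 21.8%, with medians of -0.23 and 0.0055. The groups were separate, TSN above control, for 1 of 6 members at each day, miR-148a-3p, against 24.3%, 24.9% and 20.9% of all tested miRNAs at days 3, 9 and 21. TSN lay wholly below control for 0 of 6 members at each day, against 16.3%, 27% and 17.9%. These shares are near the background. Among the 6 members, miR-193a-3p passed the filter through TSN day 9 alone, and most of its scaled values lay at the floor. Its lack of a call therefore says little, though it counts in these shares and medians and in those between days.

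Between days, 2 of 6 members had a lower TSN effect at day 21 than at day 9, miR-148a-3p and miR-215-5p, where 11.8% of all tested miRNAs had a lower and 23.4% a higher effect. The median difference was -0.86 over the 6 members and 0.22 over all tested. Without TSN day 9 replicate 4 the miR-215-5p call was lost (-0.76, limma adjusted p = 0.0688) and that of miR-148a-3p passed (-0.82, adjusted p = 0.0293). The limma test called 0 of 6 members between days 9 and 3, against 3.85% higher and 15.2% lower of all tested, and 0 had an unadjusted p under 0.05. It called 0 between days 21 and 3, against 4.08% and 9.3%, where 2 members, miR-148a-3p and miR-215-5p, were under 0.05 before adjustment.

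Within the TSN arm, 1 of 6 members was higher and 0 lower at day 9 than at day 3, against 10.2% and 26.5% of all tested. TSN day 21 against day 9 called 0 (30.6% higher and 12.7% lower of all tested), with 3 members under 0.05 before adjustment, and TSN day 21 against day 3 called 0 (4.31% and 2.72%), with 1 member under it. Within the control arm, 2 of 6 were higher and 0 lower at day 21 than at day 3, against 17% and 5.9%. Control day 9 against day 3 called 0 (9.75% and 4.31%), with 0 under 0.05 before adjustment, and control day 21 against day 9 called 0 (0.227% in each direction), with 1 under it.

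Only TSN day 21 against day 9 and control day 9 against day 3 were run on a single slide each. In the first, day 21 minus day 9 was -1.24 for miR-192-5p (SE 0.502, limma adjusted p = 0.0513), -0.49 for miR-215-5p (adjusted p = 0.0603), -0.42 for miR-148a-3p (adjusted p = 0.0714) and -0.93 for miR-122-5p (adjusted p = 0.384), and 0 of the 6 passed. Without TSN day 9 replicate 4 the miR-122-5p change turned to 0.14 (limma adjusted p = 0.928) and that of miR-192-5p was -0.46 (adjusted p = 0.215), with -0.42 for miR-215-5p and -0.35 for miR-148a-3p. In the second the 6 changes had adjusted p from 0.327 to 0.98, with the largest for miR-122-5p at -0.88.

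The array that stood apart was TSN day 9 replicate 4. Before scaling its miR-122-5p signal was 2725, against 116, 321 and 99.1 on the other 3 arrays of its group, 23.5 times their median. Its miR-192-5p signal was 3679, against 534, 679 and 304, 6.89 times their median. miR-193a-3p was 3.19 times the median of the other 3, and miR-802-5p was well above background on this array alone.

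On the same array miR-215-5p, miR-148a-3p and miR-365-3p lay among or close to the rest of their group. miR-215-5p was 658, or 0.885 times the median of the other 3, miR-148a-3p was 392, or 1.02 times, and miR-365-3p was 158, or 0.851 times. miR-194-5p was the highest of its group at 15.8, or 1.72 times the median of the other 3, and was well above background on this array alone. miR-122-3p, the opposite strand of the miR-122 hairpin, had a signal of 30.2 there and was well above background, while no other of the 24 arrays exceeded 2.53. The 75th percentile of that array was 1390, the lowest of its group, whose highest was 1690.

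**Figure D3:**
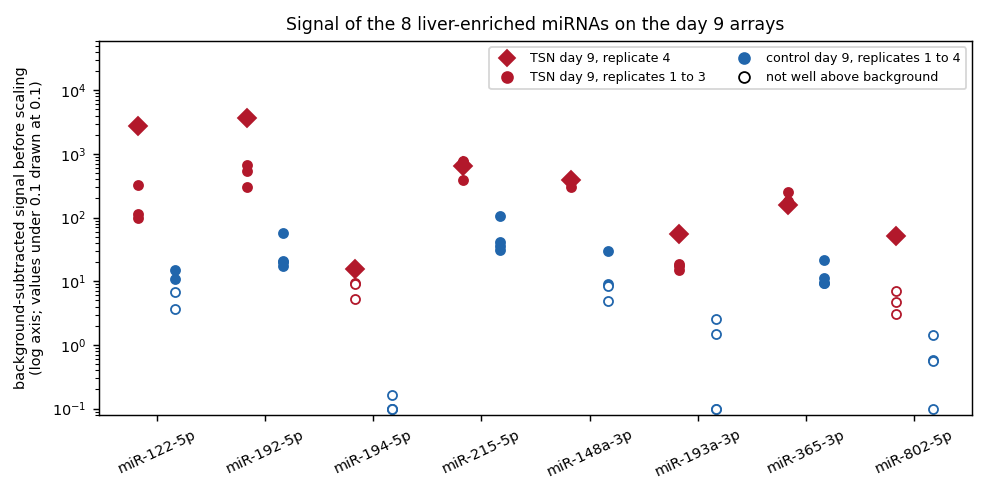
Background-subtracted signal before scaling (log axis) of the 8 members on the day 9 arrays. Red marks are TSN arrays, with the diamond for replicate 4, blue marks are control arrays, and open marks were not well above background; signals of different miRNAs come from different probes and are not comparable with each other. The diamond stands clear of the other TSN arrays for miR-122-5p (2725), miR-192-5p (3679), miR-193a-3p (55.1) and miR-802-5p (51.9) and lies among or close to them for miR-215-5p, miR-148a-3p and miR-365-3p. For miR-194-5p the diamond (15.8) is the highest mark and the only one well above background.

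Ranked among the 404 miRNAs well above background on all 4 TSN day 9 arrays by the scaled value of replicate 4 minus the median of the other 3, miR-122-5p (4.79) came first, miR-192-5p (3.07) second and miR-193a-3p (1.55) in place 4. Replicate 4 was singled out for its miR-122-5p and miR-192-5p values, so the places of these restate that choice. For miR-193a-3p the median of the other 3 lay at the floor, so 1.55 is a lower bound and its place may be higher. The median of all 404 was -0.096, and 7 of them exceeded 1. The third was the muscle miRNA miR-133b-3p (1.56), and miR-22-3p, abundant in liver and elsewhere, was in place 6 (1.18). miR-148a-3p, miR-215-5p and miR-365-3p were in places 45, 80 and 166.

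Markers of other cell types were summed over each list as scaled signal. The 7 striated muscle miRNAs, with 3 of them well above background and miR-206-3p, miR-208a-3p, miR-208b-3p and miR-499-5p at background on every array, summed to 0.473 to 4.88 in TSN day 9, against 0.0529 to 0.122 in control day 9, and replicate 4 had the highest sum. miR-133b-3p and miR-133a-3p were at least 21.1-fold and 6.35-fold higher in TSN at day 9 (limma adjusted p = 2.92e-08 and 5.55e-07). The 5 red cell miRNAs summed to 72.4 to 91.7 in TSN day 9, against 31.1 to 61.5 in control day 9, and replicate 4 had 78.7. This sum is mostly miR-451a, whose signal on replicate 4 was 97776 before scaling, against 8029 for the next, miR-486a-5p. Taken singly, 3 of the 5 were called higher and 2 lower in TSN at day 9 (changes of -0.81 to 1.60). Of all tested miRNAs, 27.7% were called higher and 34.5% lower. The 6 leukocyte and platelet miRNAs summed to 1.93 to 2.38 in TSN day 9, against 3.29 to 4.01 in control day 9, with 2.27 on replicate 4. The 7 gut and kidney epithelial miRNAs summed to 0.0439 to 0.0663 in TSN day 9, against 0.0348 to 0.0828 in control day 9, and replicate 4 had the highest of the TSN sums. The 4 pancreas miRNAs summed to 0.00473 to 0.00958 in TSN day 9, also with replicate 4 highest, against 0.00315 to 0.0156 in control day 9. Of the 7 epithelial miRNAs, 5 were at background on all but at most 2 arrays, and of 4 pancreas miRNAs, 3 were at background on all 24. The part of muscle, red cell, leukocyte, epithelial and pancreas miRNA in the day 9 values of the members was not tested.

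The 10 other listed miRNAs, abundant in liver but also made elsewhere, were all tested. By the same limma test, 29.3% of all 441 tested miRNAs were called higher and 18.6% lower in TSN at day 3. The shares were 27.7% and 34.5% at day 9, and 23.1% and 21.8% at day 21. At day 3, 6 were higher and 2 lower in TSN, led by miR-26a-5p (1.79, limma adjusted p = 2.67e-06) and miR-22-3p (-1.36, adjusted p = 5.08e-06). At day 9, 4 were higher and 2 lower, led by miR-22-3p (-1.26, adjusted p = 1.09e-05) and miR-101a-3p (0.94, adjusted p = 8.64e-05, with 1 control array well above background). At day 21, 1 was higher and 4 lower, led by miR-22-3p (-2.08, adjusted p = 3.65e-08). One of these 4, miR-101b-3p, had all 4 TSN arrays at the floor and 1 control array well above background, so its call has no usable size. The median changes of the 10 were 0.56, -0.059 and 0.018.

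The array with the highest miR-122-5p was also the one with the highest miR-192-5p in 4 of the 6 groups, TSN day 3, TSN day 9, control day 9 and control day 21. miR-192-5p and miR-215-5p shared the highest array in 5 of 6 groups, miR-122-5p and miR-215-5p in 3, miR-122-5p and miR-148a-3p in 2 and miR-122-5p and miR-365-3p in 1. Among the 362 miRNAs well above background on all 12 TSN arrays, the one most like miR-122-5p in scaled values was miR-192-5p, with Pearson r of 0.927, or 0.653 without TSN day 9 replicate 4. miR-22-3p came next for both, with r of 0.827 with miR-122-5p (0.475 without that array) and 0.908 with miR-192-5p (0.775 without it). Without that array the closest were miR-24-3p to miR-122-5p (0.786) and miR-361-5p to miR-192-5p (0.968).

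**Figure D4:**
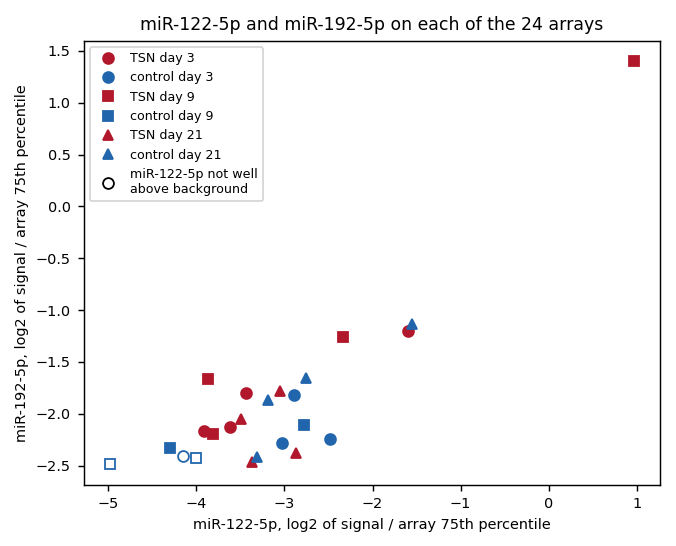
Scaled signal (log2 of signal over the array's 75th percentile) of miR-122-5p (horizontal axis) and miR-192-5p (vertical axis) on each of the 24 arrays, in red for TSN and blue for control, with open marks where miR-122-5p was not well above background. TSN day 9 replicate 4, at 0.97 and 1.40, stands alone at the upper right, and TSN day 3 replicate 3 (-1.59 and -1.20) and control day 21 replicate 4 (-1.55 and -1.14) come next.

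For miR-365-3p the closest of the 362 over the 12 TSN arrays was miR-193b-3p, the neighbour of Mir365-1, with r of 0.901, followed by miR-378a-3p (0.85). For miR-148a-3p they were miR-19b-3p (0.931) and miR-10b-5p (0.927), and for miR-215-5p miR-484 (0.894) and miR-342-3p (0.889). Over all 24 arrays, among 152 miRNAs, miR-215-5p was closest to miR-223-3p (0.736) and miR-192-5p to miR-29c-3p (0.812, or 0.682 without TSN day 9 replicate 4). Arrays share their scaling and slide, so these values describe likeness only.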

How the data were processed

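The deposited scanner values are background-subtracted spot intensity, made with Feature Extraction 10.7.1.1 per the file headers, with no scaling between arrays. Spots of a probe were averaged without control and outlier spots. Signals were scaled to the array's 75th percentile, taken over 261 probes that all 24 arrays measured well above background, then floored at 0.0135 (-6.21 as log2) and put on the log2 scale. A probe counted as well above background where over a 0.5 share of its spots did. The brighter probe stood for a miRNA. One limma fit (limma 3.58.1, R 4.3.3) over 6 groups gave 12 two-sided comparisons, adjusted by Benjamini-Hochberg over 441 miRNAs at 0.05. The fit was tested on simulated data. The authors' deposited log2 values, whose scaling and centring are unknown (column medians 4.37 to 4.40), and the software's total gene intensity were alternatives, beside other scalings, normexp (offset 50), probe averaging, the floor, the filter, array weights and a replicate block. Arrays of the same replicate number, which is the column on the slide, deviated together in TSN against control at day 9. There r across miRNAs was 0.204 to 0.357 in 4 of 4 pairs. In no other comparison of 2 groups was r positive in every pair. Single pairs reached 0.497 in TSN day 21 against day 9 and 0.470 in control day 21 against day 9. Of 4 slides, 1 held control days 3 and 9, 1 control day 21, 1 TSN day 3 and 1 TSN days 9 and 21, and the last 2 were scanned on the same day. The control slides were each scanned on a different day of their own, so the arms cannot be told apart from the scan days either.

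The members and lists were chosen with earlier results of these data known. The rule named the 8 members, their other strands and sequence relatives, the 2 closest miRNAs by correlation, and the 2 smallest adjusted p of each list. miR-24-3p and miR-361-5p were named after their values were seen.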

Additional observations from a re-analysis of the deposited data

Results flagged for a closer look

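Among 48 groups of 4 arrays (8 members in 6 groups), 6 had a highest or lowest array whose gap to its neighbour, as a share of the group's range, exceeded Dixon's 95% critical value. Chance flags about 1 in 20 groups where no array lies at the floor. A group with all 4 arrays at the floor cannot be flagged, and a group with only 3 there always is. The count of 6 therefore cannot be set against that rate. For miR-215-5p the low array was TSN day 9 replicate 3 (-1.83, next -1.19, ratio 0.858). For miR-193a-3p the high arrays were TSN day 9 replicate 4 (-4.66, next -6.20, ratio 0.995), TSN day 3 replicate 3 (-6.06, ratio 1) and control day 9 replicate 4 (-5.61, ratio 1). For miR-802-5p they were TSN day 9 replicate 4 (-4.74, ratio 1) and control day 3 replicate 1 (-5.93, ratio 1). In the 4 cases with a ratio of 1 the other 3 arrays lay at the floor of -6.21, and the 2 control arrays among them were not well above background themselves. The high miR-122-5p and miR-192-5p values of TSN day 9 replicate 4 were not among these 6, since the other 3 arrays of that group also spread.

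The TSN effect differed between days for miR-215-5p (-0.832, day 21 minus day 9, limma adjusted p = 0.0333) and for miR-148a-3p (-0.895, adjusted p = 0.0121). With 1 array left out in turn, adjusted p ranged from 0.00692 to 0.0795 and from 0.00085 to 0.0293. The control day 21 arrays lay on a slide of their own, so that in both the day and the slide cannot be told apart.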

How the results depend on the processing

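Over TSN against control, its differences between days and the called changes within an arm, under up to 15 alternatives, 377 values of single members kept direction and side of the threshold, 52 lost the call, 25 gained one and 22 turned sign. Values under other scalings or signals are relative to the median of all miRNAs, which moved by up to 2.45 (no scaling, day 9) and -2.03 (normexp, day 9). The cause of the changes was not tested. Signal over background limits miR-122-5p, miR-148a-3p and miR-365-3p on the control arrays, and miR-193a-3p, miR-194-5p and miR-802-5p have no usable fold. The scaling by 4 labelling spike-ins was chosen after seeing the data.

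At day 3, miR-215-5p turned to 0.17 with the percentile over all probes, 0.00765 with quantile normalization, 0.40 with 8 spike-ins, 0.17 with 4, 0.71 with no scaling and 1.07 with normexp. miR-122-5p, whose main change of 0.00013 has no clear sign, was -0.65 with total gene signal and -0.11 with the mean of probes. It was -0.19 with the authors' values and -0.38 with array weights. miR-365-3p turned to -0.027 with total gene signal and -0.037 with the authors' values. At day 21, miR-192-5p turned to 0.096 with no scaling and 0.59 with normexp, and with normexp miR-122-5p turned to 0.19 and miR-215-5p to 0.50. For miR-365-3p the day 9 minus day 3 effect turned to -0.089 with array weights, and the day 21 minus day 9 effect to -0.33 (all probes), -0.28 (8 spike-ins), -0.23 (4 spike-ins) and -0.51 (no scaling). The day 21 minus day 3 effect of miR-122-5p turned to 0.0099 with array weights.

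The members called higher at day 3 were 3 with normexp and 0 with the filter on all 24 arrays, and 1 was lower with 8 spike-ins and with no scaling. At day 9, 4 were higher with all probes, 8 or 4 spike-ins and total gene signal, 5 with no scaling and normexp, and 1 with no filter, the filter on all 24 arrays and only the groups compared, while 1 was lower with 8 spike-ins and no scaling. At day 21, 0 were higher with all probes, 8 spike-ins, no scaling, total gene signal, the authors' values, the filter on all 24 arrays and only the groups compared, and 0 were lower with all probes, 4 spike-ins, normexp, no filter and only the groups compared. For day 21 minus day 9, 1 was called with 8 spike-ins, the authors' values and only the groups compared, and 0 with no scaling, normexp and no filter. For day 21 minus day 3, 1 was called with no filter and 2 with array weights. For TSN day 9 against day 3, 0 were called with all probes, 8 spike-ins, no scaling, normexp, no filter and only the groups compared. For TSN day 21 against day 9, 1 was called with quantile normalization, a halved floor, the authors' values and only the groups compared, 2 with 4 spike-ins and the filter on all 24 arrays, and 3 with array weights. For control day 21 against day 3, 0 were called with all probes, 8 spike-ins, no scaling, normexp and only the groups compared, and 1 with quantile normalization, 4 spike-ins, total gene signal, the authors' values and the filter on all 24 arrays.

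With the replicate number as a block, 1 member was higher at day 9, 0 were higher and 0 lower at day 21 (limma adjusted p = 0.112 for miR-148a-3p and 0.059 for miR-215-5p), and 0 were called in TSN day 9 against day 3 and control day 21 against day 3. The other counts of members called did not move.

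With 1 array left out in turn, members called higher numbered 1 to 1 at day 3, 1 to 3 at day 9 and 1 to 2 at day 21, and members called lower 0 to 0, 0 to 0 and 1 to 1. The differences of the effect called 0 to 0 (day 9 minus day 3), 1 to 3 (day 21 minus day 9) and 0 to 1 (day 21 minus day 3). Within TSN, counts were 0 to 2 (day 9 against 3), 0 to 2 (day 21 against 9) and 0 to 0 (day 21 against 3), and within control 0 to 0, 0 to 1 and 1 to 2 (day 9 against 3, 21 against 9 and 21 against 3). Values that turned sign ranged from -0.52 to 0.26 for miR-122-5p, -0.10 to 0.024 for miR-215-5p and -0.11 to 0.32 for miR-365-3p at day 3, from -0.10 to 0.44 for miR-365-3p in day 21 minus day 9, and from -0.75 to 0.019 for miR-122-5p in day 21 minus day 3.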
